A study of Mus musculus with 12 samples.

Results

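The genes described here are the 2 host genes of the miR-128 precursors, R3hdm1 and Arpp21, and 8 genes of the general microRNA machinery, Drosha, Dgcr8, Xpo5, Dicer1, Tarbp2, Ago1, Ago2 and Ago3. They were taken by symbol from a table of 52550 features, and all 10 were found and passed the filter on low counts. They were chosen with earlier results of these data known. The groups were Fmr1 knockout (KO, Fmr1-/y) and wild-type (WT, Fmr1+/y) mice of a mixed FVB/C57 background at postnatal day 40, with 3 libraries each. All animals carried the Aldh1l1-TRAP transgene, in which the astrocyte promoter Aldh1l1 drives an eGFP-tagged ribosomal protein, and somatosensory cortex RNA bound to tagged ribosomes was pulled down with anti-eGFP beads. The knockout is of the whole animal, so the astrocytes of the mutants also lay among mutant neurons. The title of the series states that miR-128 is up-regulated in astroglia that lack FMRP, the RNA-binding protein encoded by Fmr1, and the host and machinery genes bear on the supply of that microRNA.

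A microRNA is first transcribed as part of a longer RNA, often inside an intron of a protein-coding host gene. In the nucleus the Microprocessor, made of the nuclease Drosha and the RNA-binding protein DGCR8, cuts out a hairpin, which exportin 5 carries to the cytoplasm. Dicer, with its partner TRBP (gene Tarbp2), trims the hairpin to a short duplex, and an Argonaute protein keeps 1 strand and uses its seed to find target mRNAs. miR-128 is abundant in brain and is known best from neurons, where both host genes are also expressed. FMRP has been reported to bind Argonaute and Dicer.

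The mature product and its precursors are shown because both host genes give the same active strand. Sequences are from RefSeq (GRCm38.p6), written 5′ to 3′ with the seed (bases 2 to 8) in capitals.
miR-128-3p: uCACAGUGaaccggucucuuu
miR-128-1-5p: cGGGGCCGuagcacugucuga
miR-128-2-5p: gGGGGCCGaugcacuguaagaga
The 3p strand is 21 bases long and identical from both precursors, and the other strands of the 2 hairpins differ in sequence but share the seed GGGGCCG. Among 1679 mature mouse microRNA names in the RefSeq table, miR-128-3p was the 1 name with CACAGUG at bases 2 to 8. miR-27a-3p and miR-27b-3p hold the same 7 letters 1 base later, shown in capitals below.
miR-27a-3p: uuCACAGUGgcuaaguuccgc
miR-27b-3p: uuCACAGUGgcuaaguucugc
In the hairpins the capitals mark the mature 3p strand.
Mir128-1 hairpin: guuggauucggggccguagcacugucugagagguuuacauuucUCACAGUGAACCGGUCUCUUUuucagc
Mir128-2 hairpin: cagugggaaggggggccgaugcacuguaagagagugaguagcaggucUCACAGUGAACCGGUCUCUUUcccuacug

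The Mir128-1 hairpin lies on the plus strand of chromosome 1 from 128202361 to 128202430, within the span of R3hdm1 (128103282 to 128237738) and 99.1 kb from its start. The Mir128-2 hairpin lies on the minus strand of chromosome 9 from 112118636 to 112118711, within the span of Arpp21 (112065091 to 112236288) and 118 kb from its start. Each hairpin is on the strand of its host. Both are known to be intronic, so a host's counts, which come from its annotated exons, do not measure the hairpin.

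The hairpins themselves had no counts. Mir128-1 and Mir128-2 are rows of the count table and held 0 counts in each of the 6 libraries. A count of 0 allows up to 3 counts, which is 0.422 CPM (counts per 1000000 of the TMM-scaled library size, as for all levels here) in KO library 16, where this limit is highest, and 0.115 CPM in WT library 17, where it is lowest. Of 976 hairpin rows 7 had any count, 36 counts in all. Libraries of this kind are made from long RNA, so the mature microRNA was not measured and its level was not analysed here.

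Each library was deposited as 2 entries, which were summed and counted as 1 sample. Total counts were 10953958 to 21696862 in the KO libraries (14, 16 and 18) and 19787520 to 22397202 in the WT libraries (13, 15 and 17). Features known to collect ribosomal RNA reads held 35.6% and 45.1% of the counts of KO libraries 14 and 16, against at most 7.45% in each other library. Fmr1 measured 4.32, 4.22 and 1.32 CPM in the KO libraries and 31.6, 38.4 and 37.0 CPM in the WT libraries and was thus low in each library labelled KO. The 24 astrocyte markers summed to between 35678 and 44788 CPM in the KO and between 36071 and 46030 CPM in the WT, and the 24 neuron markers to between 2297 and 3113 CPM and between 1716 and 3060 CPM. The pull-down thus held neuronal RNA, and fewer cells of a type cannot be told apart from less RNA per cell.

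None of the 10 genes passed the threshold between genotypes in edgeR's quasi-likelihood test (0 of 10 at an adjusted p under 0.05, where 0% of 14990 genes tested passed). At an unadjusted p under 0.05 the count was also 0 of 10, against 1.77% of all genes, and the adjusted p of each was 1.00. The same threshold missed Fmr1 itself, which had a log2 fold change of -3.53 and an adjusted p of 0.2998, so 0 calls in this test do not show that levels were equal. Its adjusted p was 0.148 in limma voom, which missed it, while edgeR's exact test (1.68e-11) and DESeq2 (3.18e-16) called it. DESeq2, edgeR's exact test and limma voom called 0 of the 10 as well, at either threshold. DESeq2 called 0.0534% of all genes at the adjusted threshold and 1.83% at the unadjusted one, the exact test 0.06% and 1.65%, and limma voom 0% and 2%. Log2 fold changes (KO over WT) ran from -0.24 for Dicer1 to 0.14 for Tarbp2, with 4 above 0, 6 below 0 and a median of -0.01, against -0.0019 over all genes tested. The KO and WT libraries overlapped in all 10, where 6.2% of all genes did not overlap. Within a genotype the SD of log2 CPM had a median of 0.24 over the 10, against 0.28 over all genes tested.

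**Figure D1:**
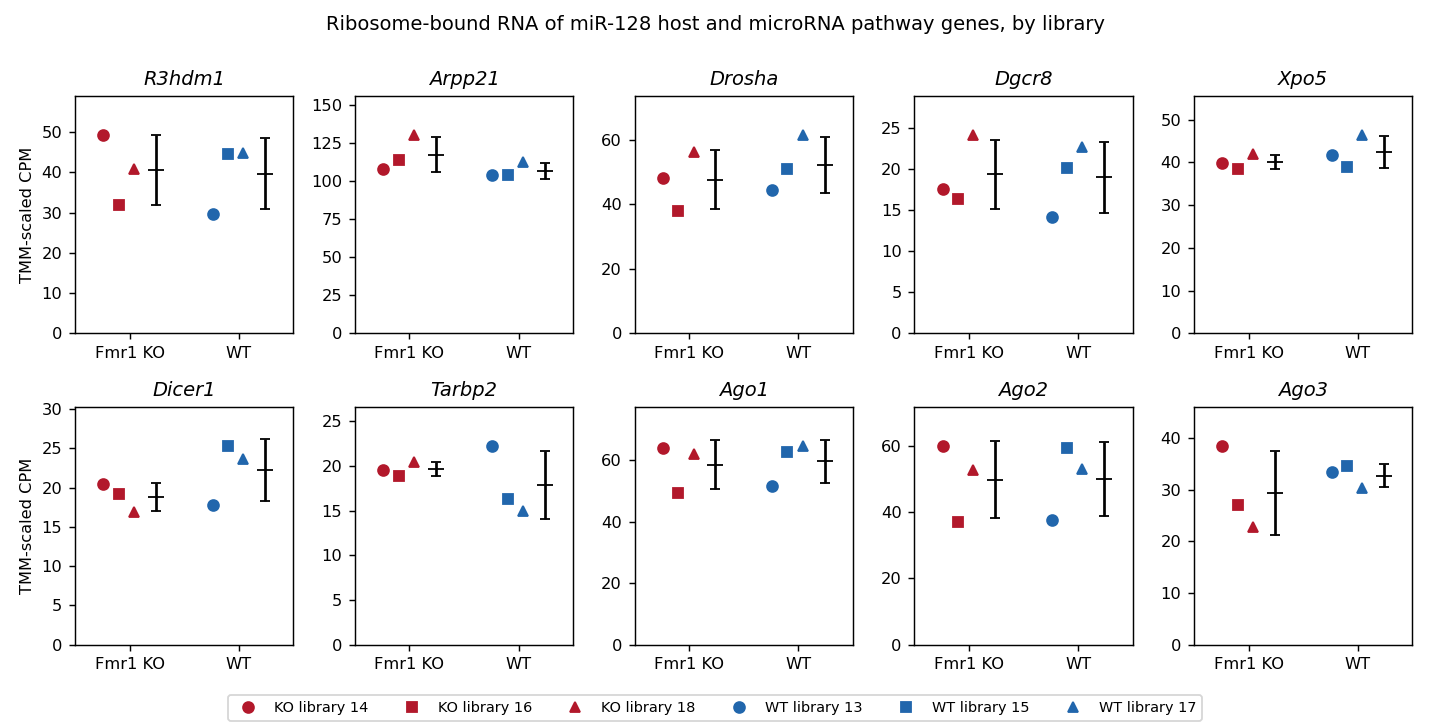
Level of each gene in TMM-scaled CPM (vertical axis, from 0) in the 3 Fmr1 KO libraries (red, left) and the 3 WT libraries (blue, right), with the marker shape naming the library and the black bar giving the mean ± SD. In all 10 panels the groups overlap, and Ago2 is at 36.9 CPM in KO library 16 and at 37.7 CPM in WT library 13.

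R3hdm1, which encodes a protein with an R3H domain, varied within both genotypes and did not differ between them beyond that spread. Its level was 49.3, 31.8 and 40.8 CPM in KO libraries 14, 16 and 18 and 29.6, 44.7 and 44.9 CPM in WT libraries 13, 15 and 17. The highest value was that of a KO library and the lowest that of a WT one. The coefficient of variation was 21.5% in the KO and 22.2% in the WT, while counting error alone was between 2.92% at the highest count of 1174 and 6.65% at the lowest of 226. The log2 fold change of 0.04 (SE 0.22) left folds between 0.726 and 1.45 within its 95% interval (exact permutation p = 0.9).

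Arpp21 encodes a cAMP-regulated phosphoprotein that also binds RNA and is known as a neuronal gene. It measured 108, 114 and 130 CPM in KO libraries 14, 16 and 18 and 104, 104 and 112 CPM in WT libraries 13, 15 and 17. The 2 highest values were those of KO libraries, and KO library 14 lay below WT library 17. Means were 117 ± 11.6 and 107 ± 4.95 CPM (SD, n = 3 each), a log2 fold change of 0.14 (SE 0.13) whose 95% interval spanned folds of 0.888 to 1.36. The two-sided exact permutation p of Arpp21 was 0.2, where 3 libraries against 3 cannot give less than 0.1. In the unadjusted p of edgeR's quasi-likelihood test, 20.8% of all genes had a smaller value than Arpp21, against 83.1% for R3hdm1.

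The hosts were also compared in their patterns over the libraries. The log2 ratio of Arpp21 to R3hdm1 counts, which does not depend on scaling, was 1.13, 1.84 and 1.67 in KO libraries 14, 16 and 18 and 1.81, 1.22 and 1.32 in WT libraries 13, 15 and 17. Knockout library 16 and WT library 13 thus had the highest ratios, and the genotype means of 1.55 ± 0.370 and 1.45 ± 0.317 (SD, n = 3 each) did not differ beyond the spread (exact permutation p = 0.9). Measured as the root mean square difference of centred log2 CPM over the 6 libraries, the patterns of Arpp21 and R3hdm1 lay 0.28 apart. From R3hdm1 the median distance of the other 14989 genes was 0.37, and from Arpp21 it was 0.28. In order of closeness Arpp21 ranked 3744 from R3hdm1, and R3hdm1 ranked 7768 from Arpp21. The hosts were thus not unusually far apart in pattern.

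The genes nearest in pattern to R3hdm1 were Zfp292, a zinc finger gene, at a distance of 0.03, the histone deacetylase gene Hdac9 at 0.05 and Prkab2, which encodes a regulatory subunit of the AMP-activated kinase, at 0.06. Zfp292 measured 25.0, 16.1 and 20.3 CPM in KO libraries 14, 16 and 18 and 14.6, 23.1 and 21.6 CPM in WT libraries 13, 15 and 17. Like R3hdm1 it was highest in KO library 14 and lowest in WT library 13, which follows from its choice by closeness over the same 6 libraries. The genes nearest to Arpp21 were Asic1, which encodes an acid-sensing ion channel, Ldoc1l and Dohh (ENSMUSG00000078440; another row of the count table carries the same symbol), at distances of 0.03, 0.03 and 0.04. Asic1 measured 19.0, 21.4 and 23.5 CPM in the KO libraries and 19.2, 19.2 and 21.0 CPM in the WT libraries. It was highest in KO library 18 as Arpp21 was, which again follows from the choice.

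The Microprocessor genes Drosha and Dgcr8 did not differ beyond the spread. Drosha (chromosome 15, 12824804 to 12935291), the nuclease, measured 48.2, 38.02 and 56.3 CPM in KO libraries 14, 16 and 18 and 44.3, 50.9 and 61.3 CPM in WT libraries 13, 15 and 17. The lowest value was that of KO library 16 and the highest that of WT library 17. The log2 fold change of Drosha was -0.13 (SE 0.19), with folds of 0.679 to 1.23 inside the 95% interval.

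Dgcr8 (chromosome 16, 18253948 to 18289251), the RNA-binding partner of Drosha, measured 17.5, 16.3 and 24.1 CPM in the KO libraries and 14.2, 20.1 and 22.7 CPM in the WT libraries. The log2 fold change of Dgcr8 was 0.03 (SE 0.23), and its interval of folds, 0.711 to 1.48, was among the widest of the 10. Its lowest count was 116, in KO library 16, where counting error is 9.28%. The log2 ratio of Drosha to Dgcr8 counts was 1.46, 1.22 and 1.22 in KO libraries 14, 16 and 18 and 1.64, 1.34 and 1.43 in WT libraries 13, 15 and 17. The groups overlapped through KO library 14, and the means of 1.3005 ± 0.137 and 1.47 ± 0.154 (SD, n = 3 each) gave an exact permutation p of 0.3.

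Xpo5 (chromosome 17, 46202811 to 46243598), the hairpin exporter, had the smallest spread of the 10. It measured 39.9, 38.4 and 41.9 CPM in the KO libraries and 41.7, 39.0 and 46.3 CPM in the WT libraries. The log2 fold change of Xpo5 was -0.08 (SE 0.13), and folds under 0.774 or over 1.16 lay outside its 95% interval.

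Dicer1 (chromosome 12, 104687740 to 104751968), which cuts the exported hairpin, had the smallest p of the 10 and missed both thresholds. It measured 20.5, 19.2 and 16.9 CPM in KO libraries 14, 16 and 18 and 17.7, 25.2 and 23.6 CPM in WT libraries 13, 15 and 17. Wild-type library 13 lay among the KO libraries. Mean levels were 18.9 ± 1.78 and 22.2 ± 3.96 CPM (SD, n = 3 each), a log2 fold change of -0.24 (SE 0.18; folds of 0.636 to 1.13 inside the 95% interval), with an unadjusted p of 0.225 in edgeR's quasi-likelihood test. By that p, 12.4% of all genes ranked ahead of Dicer1.

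Tarbp2 (chromosome 15, 102516077 to 102523676), the Dicer partner, was even in the KO and uneven in the WT. It measured 19.6, 18.9 and 20.5 CPM in the KO libraries and 22.2, 16.4 and 15 CPM in the WT libraries. The log2 fold change of Tarbp2 was 0.14 (SE 0.19; folds of 0.821 to 1.48 inside the 95% interval). The log2 ratio of Dicer1 to Tarbp2 counts was 0.06, 0.02 and -0.27 in KO libraries 14, 16 and 18 and -0.32, 0.63 and 0.65 in WT libraries 13, 15 and 17. Wild-type library 13 had the lowest ratio and WT libraries 15 and 17 the highest, so the KO lay inside the WT range (difference of means -0.38, exact permutation p = 0.4).

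The Argonaute genes did not differ between genotypes beyond the spread either. Ago2 (chromosome 15, 73101625 to 73184947) encodes the Argonaute that can itself cut a fully paired target. Its level was 59.8, 36.9 and 52.5 CPM in KO libraries 14, 16 and 18 and 37.7, 59.2 and 53.0 CPM in WT libraries 13, 15 and 17. Both genotypes held 1 low library and 2 high ones, and the log2 fold change of Ago2 was -0.0022 (SE 0.22; folds of 0.698 to 1.43 inside the 95% interval).

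Ago1 and Ago3 are neighbours on chromosome 4 (126435012 to 126468707 and 126326994 to 126431670). Ago1 measured 64.2, 49.4 and 62.0 CPM in the KO libraries and 51.7, 62.8 and 64.6 CPM in the WT libraries, a log2 fold change of -0.03 (SE 0.16; folds of 0.765 to 1.26 inside the 95% interval). Like Ago2 it was lowest in KO library 16 and WT library 13. Ago3 measured 38.3, 27.0 and 22.7 CPM in KO libraries 14, 16 and 18 and 33.3, 34.5 and 30.2 CPM in WT libraries 13, 15 and 17. Its KO values held both the highest and the 2 lowest levels, with a coefficient of variation of 27.5% in the KO and 6.72% in the WT, and the log2 fold change was -0.16 (SE 0.1999; folds of 0.653 to 1.23 inside the 95% interval).

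Ago2 made up 35.4%, 30.9% and 36.9% of the counts on Ago1 to Ago4 in KO libraries 14, 16 and 18 and 29.5%, 36.2% and 34.3% in WT libraries 13, 15 and 17. These are shares of counts and not of transcripts, since counts grow with transcript length. The means were 34.4% ± 3.12 and 33.4% ± 3.46 (SD, n = 3 each; exact permutation p = 0.6). Ago4 held 4.18% ± 0.774 and 4.14% ± 0.213 of these counts (SD, n = 3 each), and Ago4 itself measured 5.89 ± 0.568 and 6.17 ± 1.04 CPM.

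**Figure D2:**
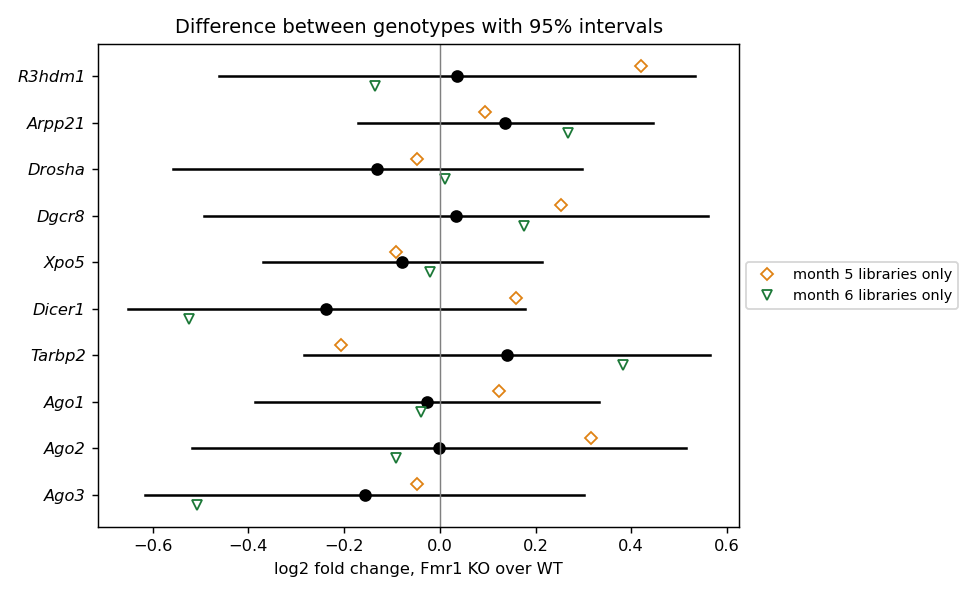
Log2 fold change (KO over WT, horizontal axis) of each gene with its 95% interval from edgeR's quasi-likelihood fit (black), beside the difference within month 5 (orange, KO libraries 14 and 16 minus WT library 13) and within month 6 (green, KO library 18 minus WT libraries 15 and 17). All 10 intervals hold 0, and R3hdm1 stands at 0.42 within month 5 and at -0.14 within month 6.

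The library names carry a pair of numbers that the labels do not explain. The first number, 5 or 6, is called the month here, and the second was not used. Within month 5 the KO was represented by libraries 14 and 16 and the WT by library 13, and within month 6 the KO by library 18 and the WT by libraries 15 and 17. The log2 difference of R3hdm1 was 0.42 within month 5 and -0.14 within month 6, and that of Ago2 0.32 and -0.09. Dicer1 stood at 0.16 and -0.52 and Tarbp2 at -0.21 and 0.38. In 6 of the 10 genes the months had opposite signs. Arpp21 (0.09 and 0.27), Dgcr8 (0.25 and 0.18), Xpo5 (-0.09 and -0.02) and Ago3 (-0.05 and -0.51) had 1 sign in both. With 1 library on a side these within-month values have no replicate check. Without KO libraries 14 and 16 only KO library 18 stands against the WT libraries, and it is assumed to vary like them. In that edgeR quasi-likelihood fit Ago3 was the 1 gene of the 10 under 0.05 before adjustment, where 3.63% of all genes were. The unadjusted p of Ago3 was 0.0458 and its adjusted p 0.965.

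Knockout library 16 and WT library 13 accounted for most of the low values. Of the 10 genes, 4 were lowest in KO library 16 and 3 in WT library 13. Relative to the WT mean, the median over the 10 genes was 0.06, -0.23 and 0.08 in KO libraries 14, 16 and 18 and -0.21, 0.08 and 0.11 in WT libraries 13, 15 and 17, in log2 units. The median over the 24 neuron markers was 0.02, -0.19 and 0.51 in the KO libraries and -0.60, 0.22 and 0.38 in the WT libraries. The lowest neuron medians were those of the same 2 libraries, while the 24 astrocyte markers had their highest medians there, at 0.29 in each. The part of neuronal RNA in the spread of the 10 genes was not tested.

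Some of the genes departed from this order. Tarbp2 was highest in WT library 13, at 0.33 above the WT mean in log2 units, and Ago3 and Dicer1 were lowest in KO library 18, at -0.52 and -0.37, where the neuron and oligodendrocyte medians were highest (0.51 and 0.71). The share of the log2 spread that lay between genotypes ran from 0.0268% for Ago2 to 35.7% for Arpp21. Its median over the 10 genes was 12.0%, against 7.24% over all genes tested. At 3 libraries each this share lies above 0 even without a difference between genotypes, and the medians were not tested against each other.

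**Figure D3:**
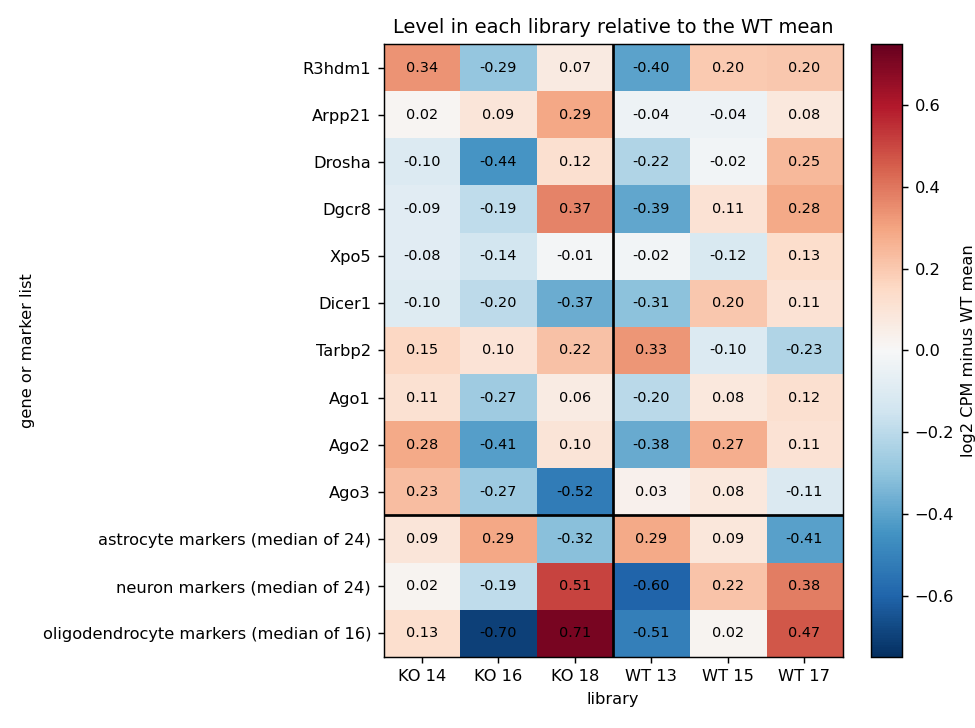
Log2 CPM minus the WT mean (colour and printed value) for each of the 10 genes and, below the line, the median of 3 marker lists, in the KO libraries (left) and the WT libraries (right). Knockout library 16 and WT library 13 are at -0.29 and -0.40 for R3hdm1 and at -0.41 and -0.38 for Ago2.

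Beyond these 10, 73 symbols of other microRNA pathway genes were listed, 3 of them newer names whose older forms are also on the list, and 68 were tested. None passed (0 of 68 in edgeR's quasi-likelihood test, with 0 at an unadjusted p under 0.05, against 1.77% of all genes), and 30 had a log2 fold change above 0 and 38 below, with a median of -0.01. DESeq2, edgeR's exact test and limma voom also called 0 of them. With month as a covariate, 2 of the 68 (Zswim8 and Limd1, named after their values were seen) had an unadjusted p under 0.05, where 4.73% of all genes did. The 17 nuclear genes had a median of -0.04. Among them Srsf3, a splicing factor that also helps hairpin recognition, measured 82.9 ± 16.1 and 70.6 ± 4.45 CPM in KO and WT (SD, n = 3 each), and the helicase gene Ddx17 89.9 ± 7.91 and 99.2 ± 7.33 CPM. Safb measured 22.4 ± 3.41 and 20.1 ± 0.706 CPM, and the helicase gene Ddx5, of the highest CPM in this group, 360 ± 13.2 and 370 ± 57.9 CPM.

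Among 11 genes of dicing and Argonaute loading the median log2 fold change was 0.0012. The smallest p belonged to the co-chaperone genes Dnaja2, at 111 ± 6.46 and 120 ± 6.85 CPM in KO and WT (SD, n = 3 each), Fkbp4 at 106 ± 12.5 and 115 ± 2.60 CPM and Ptges3 at 166 ± 33.3 and 178 ± 9.18 CPM. Hspa8, a heat shock cognate gene, averaged 1239 ± 523 and 1189 ± 519 CPM, with 1837 CPM in KO library 18 and 1778 CPM in WT library 17. Prkra, which encodes the other Dicer partner PACT, averaged 34.9 ± 1.36 and 33.9 ± 3.86 CPM. The members of this group lay between -0.11 and 0.06.

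The 28 silencing effectors, which act once Argonaute has bound a target, had a median log2 fold change of -0.0062. Of these, 2 had each KO library above each WT library and 0 had each below, against 2.95% and 3.25% of all genes. They were Gigyf2, a translation repressor, at 33.5, 31.0 and 37.4 CPM in the KO libraries and 29.3, 30.1 and 29.8 CPM in the WT libraries, and Eif4enif1, an eIF4E-binding protein gene, at 21.1, 20.3 and 19.5 CPM and 17.7, 19.2 and 17.3 CPM. Eif4enif1 is named after its values were seen. The unadjusted p of Gigyf2 was 0.168 and that of Eif4enif1 0.268 in edgeR's quasi-likelihood test.

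Dcp1a, a decapping gene, averaged 19.1 ± 1.3999 and 16.03 ± 2.26 CPM in KO and WT (SD, n = 3 each), and Xrn1, the exonuclease that follows decapping, 12.5 ± 1.72 and 15.1 ± 3.03 CPM. The helicase gene Ddx6 averaged 96.8 ± 12.9 and 112 ± 21.0 CPM. The GW182 genes, which link Argonaute to deadenylation, had log2 fold changes of -0.02 for Tnrc6a, -0.15 for Tnrc6b and 0.03 for Tnrc6c, with SE of 0.15 to 0.18.

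The 10 genes of microRNA tailing and turnover had a median log2 fold change of -0.02. Papd4, a poly(A) polymerase gene, averaged 12.5 ± 2.74 and 15.4 ± 0.864 CPM in KO and WT (SD, n = 3 each), Exosc10 23.3 ± 3.93 and 27.8 ± 2.54 CPM and the nuclear exonuclease gene Xrn2 36.9 ± 2.21 and 36.0 ± 2.31 CPM. Lin28b, an inhibitor of let-7 processing, stood near the detection limit, at 0, 0.704 and 0.426 CPM in the KO libraries and 1.15, 0.592 and 0.383 CPM in the WT libraries. The FMRP relatives Fxr1 and Fxr2 stood at log2 fold changes of 0.02 (SE 0.17) and -0.08 (SE 0.17).

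**Figure D4:**
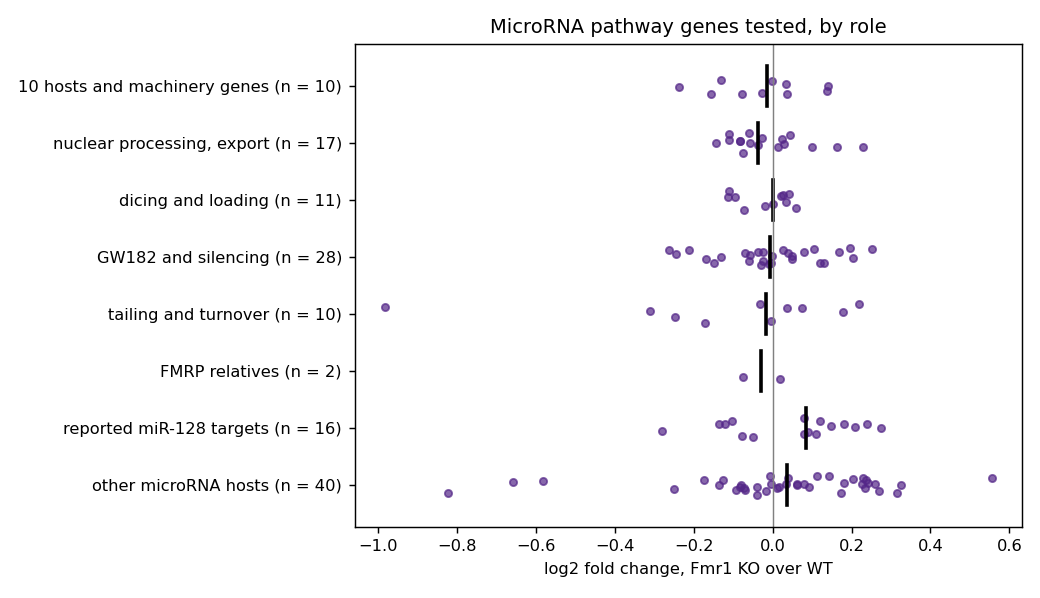
Log2 fold change (KO over WT, horizontal axis) of each gene tested, by role, with points spread vertically for view and the median as a black bar. The medians lie between -0.04 for nuclear processing and 0.09 for reported miR-128 targets, and Lin28b is the point at -0.98.

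Transcripts reported in the literature as miR-128 targets were listed as 16 genes, all of which were tested. None passed in edgeR's quasi-likelihood test (0 of 16, with 0 at an unadjusted p under 0.05, against 0% and 1.77% of all genes), nor in DESeq2, edgeR's exact test or limma voom. Their median log2 fold change was 0.09, with 10 above 0 and 6 below. The smallest p was that of Ntrk3, which encodes the neurotrophin receptor TrkC, at 42.2, 33.4 and 48.2 CPM in KO libraries 14, 16 and 18 and 37.98, 50.3 and 62.6 CPM in WT libraries 13, 15 and 17 (log2 fold change -0.28, SE 0.21). Casc3, a subunit of the exon junction complex, averaged 25.2 ± 2.92 and 22.3 ± 3.48 CPM, and the centriolar satellite gene Pcm1 34.3 ± 4.31 and 29.7 ± 8.62 CPM (SD, n = 3 each). Pea15a, an astrocyte-enriched phosphoprotein gene, averaged 1593 ± 273 and 1438 ± 436 CPM. Grm5, the receptor gene named in the series title, stood at a log2 fold change of -0.14 (SE 0.23). In that test 1 of the 16 had an unadjusted p under 0.05 without KO library 18, 1 without WT library 13 and 1 without WT library 17. Of all genes, 394, 429 and 317 did. The 3 were Bmi1, Grm5 and Pcm1, at log2 fold changes of 0.42, -0.36 and 0.45 in those fits. With all libraries Grm5 measured 41.4, 39.9 and 41.5 CPM in the KO and 29.9, 46.6 and 58.5 CPM in the WT. The lowest Grm5 value was that of WT library 13, the library left out in its fit. Bmi1 is named after its values were seen.

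Other host genes and primary transcripts of brain microRNAs were listed as 43 symbols, of which 40 were tested. Of the 43, 35 hold a hairpin of the RefSeq table within their span, on either strand. Sox2ot, Smc4, Mir124a-1hg and Akt2, named below, are not in the set taken further below by a hairpin on a gene's own strand. None passed (0 of 40 in edgeR's quasi-likelihood test), 1 had an unadjusted p under 0.05, against 1.77% of all genes, and the median log2 fold change was 0.04. The count of 1 became 5 of 40 with month as a covariate, against 4.73% of all genes. It became 2 without KO library 16 and 2 without WT library 13, where 251 and 429 of all genes had such a p. The count was 0 with limma voom, without KO library 14 and without KO library 18. It stayed at 1 with DESeq2 and edgeR's exact test. In the first count the 1 gene was Sox2ot, a long noncoding RNA that overlaps Sox2. It measured 6.85, 9.01 and 8.20 CPM in the KO libraries and 14.4, 8.26 and 19.8 CPM in the WT libraries (unadjusted p = 0.0298). Wild-type library 15 lay inside the KO range. Sox2ot was also counted with DESeq2, the exact test, month as a covariate and without KO library 16. Without WT library 13 the 2 genes were Smc4 and Mir9-3hg, and without WT library 17 the 1 gene was Htr2c. Mir9-3hg and Htr2c are named after their values were seen. Smc4, a condensin subunit gene, and Mir124a-1hg, the primary transcript of a neuronal microRNA, had each KO library below each WT library, 2 of 40 against 3.25% of all genes.

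Mir124a-1hg measured 2.53, 2.25 and 3.21 CPM in the KO libraries and 3.41, 3.87 and 4.86 CPM in the WT libraries (unadjusted p = 0.0791), and Smc4 3.02, 2.68 and 2.05 CPM and 3.15, 3.67 and 5.28 CPM (unadjusted p = 0.0742). Both were low genes in which neighbouring libraries of the 2 genotypes lay close together. Akt2, a kinase gene and the one of the highest CPM on this list, averaged 574 ± 16.5 and 648 ± 65.4 CPM in KO and WT (SD, n = 3 each). The adjusted p of Sox2ot, Smc4, Mir124a-1hg and Akt2 in edgeR's quasi-likelihood test was 1.00 each.

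The authors' deposited table lists all 10 genes. There the smallest p of the 10 was also that of Dicer1, with a log2 fold change of -0.24 and an adjusted p of 0.865, and 0 of the 10 had an adjusted p or a p under 0.05. Over all 14843 features of the authors' deposited table, 0.573% had an adjusted p and 6.92% a p under 0.05. The authors' deposited table gives 9 of the 10 the sign found here, and the exception is Ago2, at 0.0060. The shared signs are no independent check, since that table holds the same libraries, with a signal for each entry apart.

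**Figure D5:**
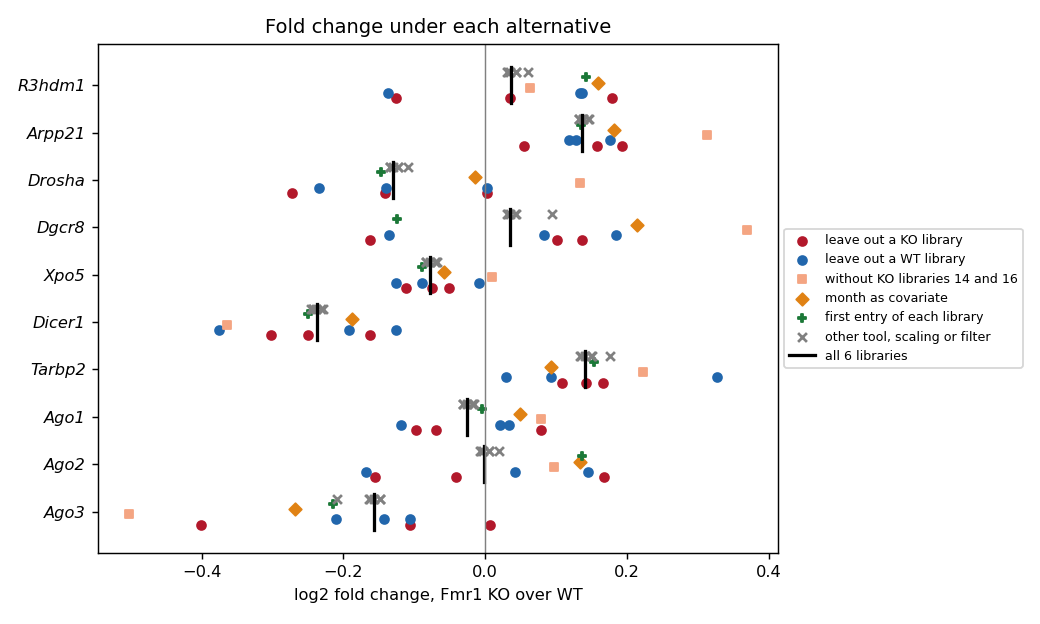
Log2 fold change (KO over WT, horizontal axis) of each gene with all 6 libraries (black bar) and under each alternative, with marker and colour naming the alternative. Without KO libraries 14 and 16, which leaves 1 KO library, Arpp21 is at 0.31, Dgcr8 at 0.37 and Ago3 at -0.50.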

How the data were processed

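The deposited counts are unscaled RSEM expected counts per gene, per the file headers. The submitters' processing notes name STAR 2.5.3a, RSEM 1.3.0, edgeR and the build mm10, and for strand and annotation release the setting is not given in the sources used. The deposited comparison table holds log2 fold changes, p-values and a scaled signal per entry, made by the authors with a test that no source used here names. Its sign at Fmr1 gives knockout over wild type.

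The 2 entries of each library differed for most features by about the sampling noise (median chi-square per feature 0.467 to 0.495, against 2.93 to 18.8 between libraries of 1 group). Summed over features, chi-square per degree of freedom was 1.17 to 2.33, so some features differed by more. Between libraries of 1 group it was 17.8 to 406. The entries were summed, rounded and counted as 1 sample. The labels do not say that libraries came from separate animals, so a p-value here reflects the spread between libraries, which may be technical. Non-whole expected counts occurred in 5 of the 10 genes (Arpp21, Dgcr8, Tarbp2, Ago1 and Ago3), where RSEM divided shared reads.

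Genes were filtered with filterByExpr, scaled by TMM and tested with edgeR's quasi-likelihood test (edgeR 4.0.16, limma 3.58.1, R 4.3.3; Benjamini-Hochberg over 14990 genes, threshold 0.05). DESeq2 1.42.0 and other settings were alternatives. CPM are TMM-scaled, and log2 CPM used a prior count of 2. The SE was the absolute log2 fold change over the square root of the quasi-likelihood F. Intervals of 95% confidence were built from this SE and a t distribution with the test's degrees of freedom. Exact permutation tests were two-sided. The scripts were tested on simulated data. Counting errors and the limit of 3 counts cover counting error only.

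The members and lists were chosen with earlier results of these data known. Named genes were the 10 members, Fmr1, the precursor rows, the 3 genes of smallest p and the gene of highest mean CPM in each list, and the 3 genes nearest in pattern to each host. Ago4, Prkra, Tnrc6a, Tnrc6b, Tnrc6c and Grm5 lie outside this rule and were chosen for their role after their values were seen. RefSeq names and sequences (GRCm38.p6) matched all 10 members and both precursors.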

Additional observations from a re-analysis of the deposited data

How the results depend on the processing

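No alternative called any of the 10 genes, with adjusted p of at least 0.965 over 150 values in 15 alternatives, and 126 of these kept the direction. An unadjusted p under 0.05 occurred once, for Ago3 without KO libraries 14 and 16. Arpp21, Dicer1 and Tarbp2 kept their direction in each alternative, but when 1 library was left out their log2 fold changes ran from 0.055 to 0.19, from -0.38 to -0.13 and from 0.0295 to 0.33, and the difference of the log2 ratio of Dicer1 to Tarbp2 from -0.70 to -0.21. The number of all genes called was 0 in edgeR's quasi-likelihood test, 8 with DESeq2, 9 with edgeR's exact test and 6 without a filter on low counts, and ran from 0 to 2 when 1 library was left out. Genes at an unadjusted p under 0.05 numbered 265 in edgeR's quasi-likelihood test, 709 with month as a covariate, 478 without a filter, 429 without WT library 13 and 601 without KO libraries 14 and 16. Fmr1 passed with DESeq2, edgeR's exact test, no filter and without KO library 18 (adjusted p = 0.0103), and missed in the other alternatives. Log2 fold changes turned without KO libraries 14 and 16, an alternative added after the data were seen, to 0.13 for Drosha, 0.0094 for Xpo5, 0.079 for Ago1 and 0.098 for Ago2. With month as a covariate Ago1 turned to 0.049 and Ago2 to 0.13. With the first entry of each library alone Dgcr8 turned to -0.12, Ago2 to 0.14 and the log2 ratio of Arpp21 to R3hdm1 to a difference of -0.017. Ago2 also turned with DESeq2 (0.0049), limma voom (0.019) and DESeq2's size factors (0.0053). When 1 library was left out, the log2 fold change ran from -0.14 to 0.18 for R3hdm1, from -0.27 to 0.0025 for Drosha, from -0.16 to 0.18 for Dgcr8, from -0.12 to 0.079 for Ago1, from -0.17 to 0.17 for Ago2 and from -0.40 to 0.0066 for Ago3. The difference of the Ago2 share ran from -0.859 to 2.81 percentage points, and that of the Arpp21 to R3hdm1 ratio from -0.048 to 0.31. The cause of these turns was not tested. No paired analysis was possible because the genotypes share no replicate number. At 3 libraries each, folds inside the intervals given above cannot be told from no difference.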

Other observations

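Host genes were also taken from the annotation alone, a rule added after the data were seen. Of 14990 genes tested, 431 hold a hairpin of the RefSeq microRNA table on their own strand within their span (GRCm38.p6), R3hdm1 and Arpp21 among them. None passed in edgeR's quasi-likelihood test (0 of 431), and 6 had an unadjusted p under 0.05, which is 1.39% against 1.77% of all genes. The log2 fold change was above 0 in 237 and below 0 in 194, with a median of 0.02. DESeq2, edgeR's exact test and limma voom were not counted over these 431.

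The 6 genes are named after their values were seen. Cux1, a homeobox gene that holds Mir721, averaged 59.1 ± 6.06 CPM in the KO and 77.2 ± 7.68 CPM in the WT (SD, n = 3 each). Pink1, a mitochondrial kinase gene that holds Mir7019, averaged 470 ± 30.2 and 588 ± 64.7 CPM, Anxa2, an annexin gene that holds Mir3109, 10.7 ± 1.11 and 14.7 ± 1.79 CPM, and Ctnnbip1, a beta-catenin inhibitor gene that holds Mir5616, 48.4 ± 12.1 and 70.3 ± 13.8 CPM. Trpm1, the host of Mir211, averaged 0.841 ± 0.343 and 1.68 ± 0.0871 CPM, and Fbrs, which holds Mir7060, 11.1 ± 1.11 and 8.22 ± 0.674 CPM. Trpm1 stood near the detection limit, at 0.563 CPM in KO library 16, where 3 counts are 0.422 CPM. In Cux1, Pink1, Anxa2 and Trpm1 each KO library lay below each WT library, and in Fbrs each lay above. Over the 431, 5 genes had each KO library above each WT library and 10 had each below, which is 1.16% and 2.32%, against 2.95% and 3.25% of all genes.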
